A study of Mus musculus with 357 samples.

Results

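Single haematopoietic stem cells (HSCs) were divided by cyclin D1 RNA into cells with a product of the Ccnd1 assay and cells without one. The groups were defined by a measured value, the threshold cycle (Ct) of Ccnd1: a Ct of 25 or below put a cell in the Ccnd1-detected group, and a later product or no product put it in the Ccnd1-undetected group. Of 357 cells, 190 were Ccnd1-detected (53.2%, exact Clopper-Pearson 95% interval 47.9 to 58.5%, for counting error only) and the remaining cells were undetected. All cells were bone marrow HSCs sorted as Lin-Sca1+c-kit+CD48-CD150+ from mice of 1 genotype, Col1a1-tetO-H2B-mCherry, in which a fluorescent histone is expressed from a tetracycline-responsive transgene and is diluted at each division once labelling stops. Cells were taken 2 weeks after labelling (90 and 93 cells on 2 plates) or 5 weeks after it (91 and 83 cells on 2 plates). The number, age and sex of the animals, the driver of the transgene and the agent that induced it are not stated in the labels. Quantitative PCR on a microfluidic chip read 96 assays per cell, leaving 95 to compare between the groups.

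Cyclin D1 is the regulatory subunit of the cyclin-dependent kinases CDK4 and CDK6 in G1. The complex phosphorylates the retinoblastoma protein and its relatives, which releases E2F factors and allows entry into S phase. Transcription of the gene responds to growth signals, cyclins D2 and D3 can carry out much of the same function in blood cells, and most HSCs of adult marrow are out of cycle. RNA of a D-type cyclin is therefore not a direct readout of division.

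The Ccnd1 product was either clearly present or absent. In the 190 detected cells its Ct ranged from 15.53 to 21.52 with a median of 18.66, and a Ct lower by 1 stands for about 1 doubling more template. Of the 357 cells, 0 had a product later than 25, so every undetected cell had no Ccnd1 product at all. The latest products, just inside the limit, were at 21.52, 21.42 and 20.81. The limit could therefore have been set anywhere between the latest product and 25 with the same groups.

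Ccnd1-detected cells made up 39 of 90 cells (43.3%) on 2-week plate 1 and 41 of 93 (44.1%) on 2-week plate 2. At 5 weeks they were 62 of 91 (68.1%) and 48 of 83 (57.8%). The median Ct of Ccnd1 was 19.38 and 18.99 on the 2-week plates and 17.84 and 18.37 on the 5-week plates. Both 5-week plates thus held a higher share of Ccnd1-detected cells, with earlier products, than both 2-week plates. These values chose the groups and are given as a description. Chase time and plate cannot be told apart here, because each plate held cells of 1 chase time only.

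**Figure D1:**
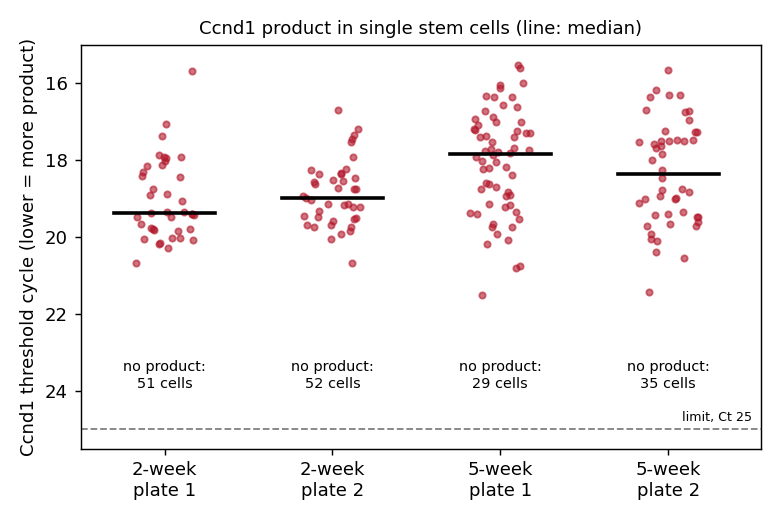
Threshold cycle of Ccnd1 (y axis, cycles, drawn with lower Ct at the top) in each Ccnd1-detected cell, by plate, with the plate median as a line and the number of cells with no product printed below. All products lie between 15.53 and 21.52, well before the limit of 25, and the medians of the 5-week plates (17.84 and 18.37) are earlier than those of the 2-week plates (19.38 and 18.99).

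Ccnd1-detected cells also gave earlier products of the reference genes. Actb (beta-actin, of the cytoskeleton) had a mean Ct of 11.08 in detected against 11.30 in undetected cells on 2-week plate 1, 10.88 against 11.11 on 2-week plate 2, 10.47 against 11.26 on 5-week plate 1 and 10.81 against 11.17 on 5-week plate 2. The difference was -0.40 ± 0.27 cycles (SD, n = 4 plates), with the same sign on every plate. For Gapdh, a glycolytic enzyme, it was -0.37 ± 0.37 cycles, and -0.20 without 5-week plate 1, where it was -0.87. Over 14 assays detected in nearly all cells, a set that includes Actb, Gapdh and Ccnd2, the mean Ct differed by -0.28 ± 0.17 cycles.

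The number of other assays detected per cell did not differ in the same direction on every plate. It was 55.8 in detected against 54.5 in undetected cells on 2-week plate 1, 52.9 against 53.5 on 2-week plate 2, 59.9 against 57.2 on 5-week plate 1 and 58.8 against 55 on 5-week plate 2. The difference, 1.79 ± 1.89 assays, was above 0 on 3 of 4 plates, and it was 1.12 without 5-week plate 2. Whether a larger or RNA-richer cell, or a more complete reaction, lay behind the earlier reference products was not tested. Differences in share are therefore given within plate and, for the assays and lists described, again at equal mean Ct of Actb and Gapdh.

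**Figure D2:**
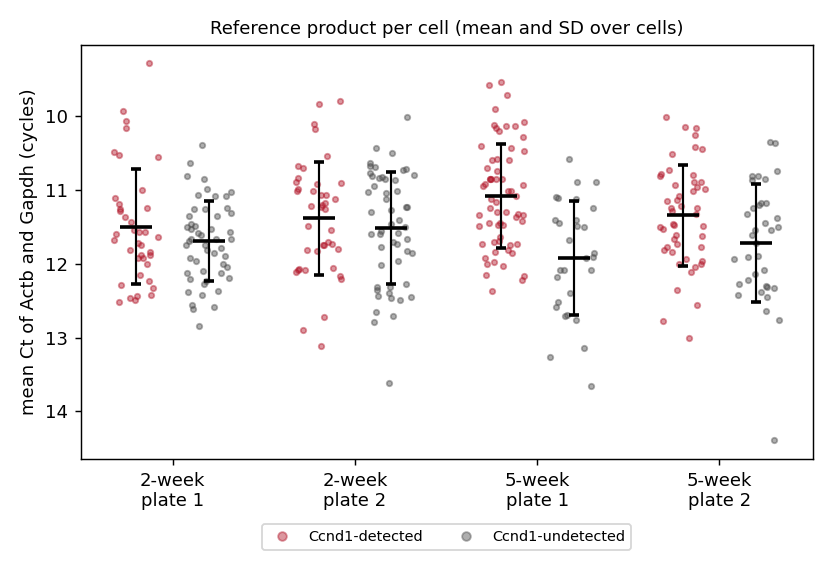
Mean Ct of Actb and Gapdh (y axis, cycles, drawn with lower Ct at the top) in each cell, for Ccnd1-detected and Ccnd1-undetected cells of each plate, with the mean and SD over cells as bars. The detected cells have the earlier mean on all 4 plates, by -0.19, -0.13, -0.83 and -0.37 cycles from left to right, and the groups overlap widely.

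The main comparison asked which other genes were found in a different share of cells. For 57 of the 95 other assays each plate held at least 3 cells with and 3 cells without a product, and an assay was called when the difference between the groups had the same sign on all 4 plates. No test was made and no p-value is given: cells are not replicates, no animal is named, and the plates may be technical repeats. By this rule 7 of 57 assays (12.3%) were found in more Ccnd1-detected cells and 2 (3.51%) in fewer. At equal Actb and Gapdh Ct, from a linear fit within each plate, 5 (8.77%) were higher and 4 (7.02%) lower. Over all 57 assays the median difference was 2.56 percentage points, and 1.12 points at equal reference Ct. With only 4 plates, some assays share a sign on all of them by chance, and the counts called were not set against that rate. Cebpb, Flt3, Sfpi, Trib2 and Zfp612 were called both ways. With the detected group restricted to the 69 cells with Ccnd1 at Ct 18 or below, of which 7 and 6 were on the 2-week plates and 33 and 23 on the 5-week plates, the differences for Cebpb, Zfp612 and Sfpi shrank to 1.39, 3.04 and -5.26 points, that for Trib2 turned to -2.59 points, and that for Flt3 was -9.53 points. At equal reference Ct the restricted values were 4.52 points for Cebpb, 1.99 for Zfp612, -10.9 for Sfpi, -4.81 for Trib2 and -9.64 for Flt3. Under the same restriction the difference for Epor grew to 23.4 points, with no allowance for reference Ct. The restriction also widened the Actb difference, to -0.88 cycles. The 2-week plates, at equal weight, make these values coarse.

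Flt3 had the lowest mean difference among called assays. It encodes the receptor for FLT3 ligand, which marks multipotent progenitors and is low on HSCs. A Flt3 product was found in 35.9% of Ccnd1-detected against 45.1% of undetected cells on 2-week plate 1, 46.3% against 57.7% on 2-week plate 2, 46.8% against 65.5% on 5-week plate 1 and 35.4% against 48.6% on 5-week plate 2. The difference was -13.1 ± 4.09 percentage points (SD, n = 4 plates) and -12.6 ± 2.38 points at equal reference Ct. The single plates gave -9.2, -11.4, -18.7 and -13.2 points, so the Ccnd1-detected cells had the lower share on each.

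The assay named Sfpi was the other one found in fewer Ccnd1-detected cells. Its shares were 76.9% against 84.3%, 63.4% against 73.1%, 85.5% against 93.1% and 83.3% against 91.4%, in the same order of plates. The difference was -8.19 ± 1.02 points and -11.8 ± 4.14 points at equal reference Ct.

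Trib2 and Cebpb were found in more Ccnd1-detected cells by both measures. Trib2, a pseudokinase that promotes the breakdown of C/EBP proteins, was detected in 38.5% of Ccnd1-detected against 33.3% of undetected cells on 2-week plate 1, 48.8% against 38.5% on 2-week plate 2, 56.5% against 48.3% on 5-week plate 1 and 43.8% against 28.6% on 5-week plate 2. Its difference was 9.7 ± 4.23 points, and 10.6 ± 5.07 at equal reference Ct. As given above, its sign turned when only the cells richest in Ccnd1 were compared. The Trib2 products were late, with a median Ct of 20.50 and 66.4% of them after Ct 18. Cebpb, a transcription factor of the C/EBP family active in myeloid cells, had shares of 17.9% against 13.7%, 19.5% against 7.69%, 37.1% against 31% and 37.5% against 25.7%. Its difference was 8.47 ± 3.92 points, and 10.1 ± 4.35 at equal reference Ct. Of the Cebpb products 37.6% came after Ct 18.

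The mean for Zfp612, a zinc finger protein, leaned most on 1 plate. Its shares were 10.3% against 9.8% on 2-week plate 1, 22.0% against 11.5% on 2-week plate 2, 30.6% against 3.45% on 5-week plate 1 and 29.2% against 25.7% on 5-week plate 2. The difference of 10.4 ± 12 points (11 at equal reference Ct) was 4.77 points without 5-week plate 1 (6.92 at equal reference Ct).

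The other 4 assays found in more Ccnd1-detected cells were no longer called at equal reference Ct. Mdm2, the ubiquitin ligase that restrains p53, had a difference of 9.28 ± 6.64 points, which was 6.04 without 2-week plate 1 and 6.0 at equal reference Ct. For Mitf, a basic helix-loop-helix factor, the values were 6.97 ± 6.0 points, 4.61 without 2-week plate 1, and 6.43 at equal reference Ct. Mitf was found in only 30 Ccnd1-detected and 14 undetected cells. On 2-week plate 2 it was found in 4 and 5 cells, a difference of 0.141 points, so its sign there carries little weight. Cdkn1c encodes p57, a CDK inhibitor that helps to keep HSCs quiescent. It was detected in 59% against 41.2%, 56.1% against 48.1%, 56.5% against 55.2% and 60.4% against 60.0% of cells, a difference of 6.88 ± 8.03 points that was 3.24 without 2-week plate 1 and 5.95 at equal reference Ct. The difference for Epor, the erythropoietin receptor, was 6.6 ± 5.34 points and became -2.42 points at equal reference Ct. On 2-week plate 1 the Epor difference was 0.302 points, with a product in 7 and 9 cells.

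Further assays were called at equal reference Ct alone. Ly6a (Sca1, part of the sort) gave a difference of 6.03 ± 4.26 points and Gfi1, a transcriptional repressor that restrains HSC cycling, 5.72 ± 2.63 points. Within plate the Gfi1 difference was 1.67 ± 2.77 points, with a product in 21 Ccnd1-detected and 18 undetected cells. On 5-week plate 1 only 3 and 2 cells had one, and a difference of -2.06 points became 3.95 at equal reference Ct. Gfi1b, the paralogue of Gfi1 in megakaryocytes and erythroid cells, gave -15.1 ± 12.5 points at equal reference Ct, or -9.57 without 5-week plate 1. Within plate it gave -7.44 ± 7.92 points, and 3.57 on 5-week plate 2. For Prmt2, a protein arginine methyltransferase, the value was -11.7 ± 15.9 points, but -35.3 points on 5-week plate 1 and -3.88 over the others. The values of Gfi1b and Prmt2 at equal reference Ct thus leaned on the plate where that Ct differed most between the groups, by -0.83 cycles.

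**Figure D3:**
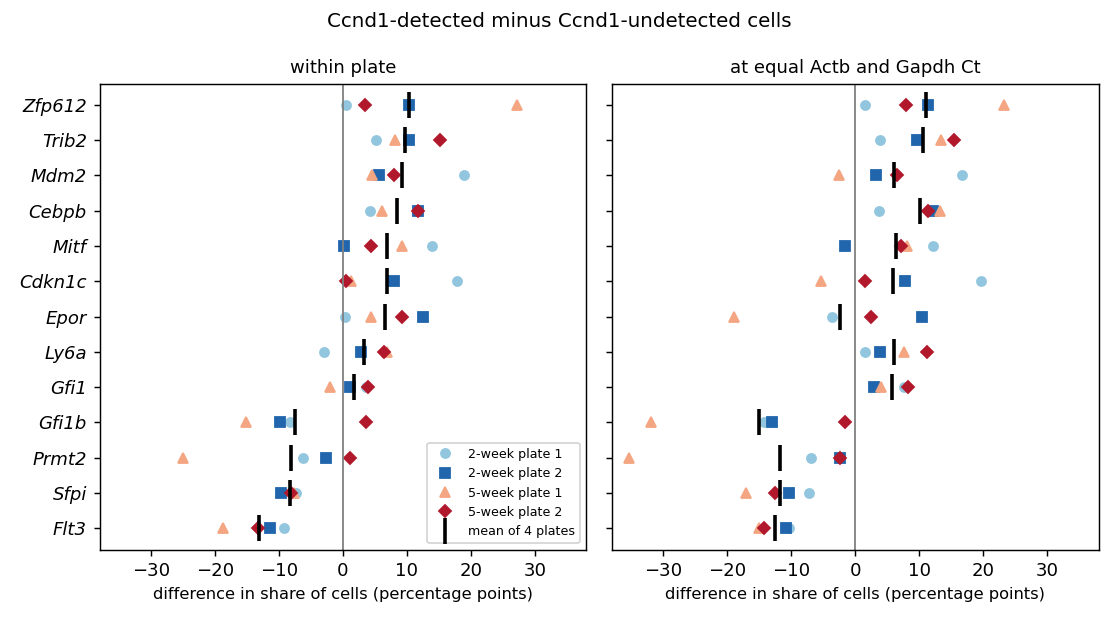
Difference in the share of cells with a product, Ccnd1-detected minus Ccnd1-undetected (x axis, percentage points), for the 13 assays called within plate, at equal Actb and Gapdh Ct, or both, with 1 symbol per plate and the mean of 4 plates as a bar. The 4 symbols of Flt3, Sfpi, Trib2, Cebpb and Zfp612 lie on 1 side of 0 in both panels, with a mean of -13.1 points for Flt3 in the left panel.

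Among the partners and relatives of cyclin D1, Ccnd2 differed most steadily between the groups. Ccnd2 encodes cyclin D2, and its RNA was found in every cell, so only its level could differ. The level is the mean Ct of Actb and Gapdh minus the Ct of the assay, on a log2 scale, in cells that detect the assay. In Ccnd1-detected against undetected cells it was -1.41 against -1.65 on 2-week plate 1, -1.61 against -1.80 on 2-week plate 2, -1.59 against -1.86 on 5-week plate 1 and -1.38 against -1.87 on 5-week plate 2. The difference was 0.30 ± 0.13 log2 units (SD, n = 4 plates), with the Ccnd1-detected cells higher on every plate, although single cells overlapped widely. It was 0.68 ± 0.36 without centring on the reference genes and 0.43 with centring on the 14 widely detected assays, which hold Actb and Gapdh too and from which the assay itself was left out.

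**Figure D4:**
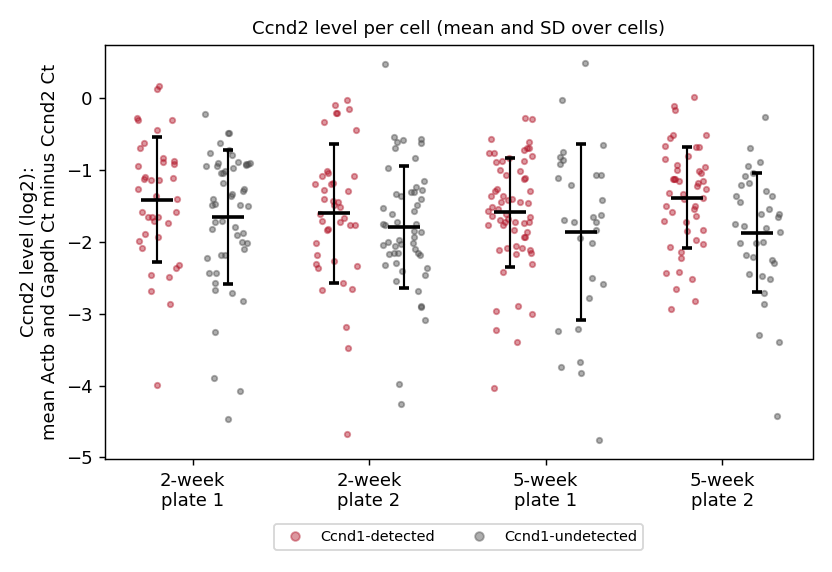
Level of Ccnd2 (y axis, log2 scale, mean Ct of Actb and Gapdh minus Ct of Ccnd2) in each cell, for Ccnd1-detected and Ccnd1-undetected cells of each plate, with the mean and SD over cells as bars. The mean of the detected cells is the higher one on all 4 plates, by 0.24, 0.19, 0.27 and 0.49 from left to right, less than the spread over cells within a group.

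Cyclin D3, CDK4 and CDK6 had no called level difference with centring on Actb and Gapdh. Ccnd3 (cyclin D3) was detected in 95.3% of Ccnd1-detected and 92.8% of undetected cells, and its level differed by -0.02 ± 0.10. Without centring that difference was 0.37 ± 0.27 and above 0 on every plate. With centring on the 14 widely detected assays it was 0.11 ± 0.13, again above 0 on every plate. CDK4 was found in every cell, at a level higher by 0.19 ± 0.25. CDK6 was detected in 89.7% against 68.6%, 90.2% against 90.4%, 91.9% against 86.2% and 91.7% against 77.1% of cells. Its difference of 10.3 ± 9.39 points was above 0 on 3 plates and near 0 on 2-week plate 2, and it was 7.68 points at equal reference Ct.

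Of 4 genes of S phase entry, all tested, 0 were called in share, where 12.3% of all tested assays were higher and 3.51% lower. Their median difference was 6.28 points against 2.56 over all tested assays (1.54 against 1.12 at equal reference Ct). Cdt1, which licenses replication origins, was detected in 53.8% against 37.3%, 53.7% against 59.6%, 51.6% against 24.1% and 50% against 42.9% of cells, a difference of 11.3 ± 14.2 points, and 4.18 at equal reference Ct. Its products were late, 70.2% of them after Ct 18. CDK2, the partner of cyclin E, differed by 7.35 ± 21.5 points (1.72 at equal reference Ct), with 83.9% against 44.8% on 5-week plate 1 and little or the opposite on the other plates. For Ccne1 (cyclin E1) the difference was 5.22 ± 7.62 points (1.36 at equal reference Ct). For Myc, a growth-promoting transcription factor, it was 0.873 ± 11 points and turned to -4.75 at equal reference Ct. The Myc level was higher in Ccnd1-detected cells by 0.19 with centring on Actb and Gapdh, not called. It was higher by 0.58 without centring and by 0.29 with centring on the 14 widely detected assays, both called.

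Among CDK inhibitors, 6 were measured and 4 could be tested, and 1 of these, Cdkn1c, was called higher, where 12.3% of all tested assays were. At equal reference Ct none of the 4 was called, where 8.77% of all tested assays were higher and 7.02% lower. The median of the 4 was 3.96 points, and -2.76 at equal reference Ct. Cdkn1b encodes p27, which binds and restrains cyclin-CDK complexes. It was detected in 38.5% against 52.9%, 56.1% against 53.8%, 87.1% against 93.1% and 93.8% against 80.0% of cells, a difference of -1.12 ± 12 points with both signs (-2.91 at equal reference Ct). Its level in detecting cells was lower in the Ccnd1-detected group, at -5.76 against -4.82, -5.80 against -5.02, -4.89 against -3.81 and -5.10 against -4.78. This difference of -0.78 ± 0.33 had the same sign on every plate, but it was -0.27 and not called without centring. The INK4 inhibitors of CDK4 and CDK6, Cdkn2c and Cdkn2d, differed in share by 5.05 and 2.86 points, and by -2.98 and -2.62 points at equal reference Ct, neither called. The Cdkn2c level in detecting cells differed by -0.38 ± 0.19 and was called lower. With centring on the 14 widely detected assays it was -0.25 and called, but without centring 0.00 and not called. The Cdkn2d level differed by -0.38 ± 0.47, not called. Cdkn1a (p21), a p53 target, was detected in 13 Ccnd1-detected and 14 undetected cells, and Cdkn2a in 6 and 7, too few to compare by plate.

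Of 6 genes of the pocket proteins and the p53 pathway 5 were tested, and Mdm2 alone was called higher, where 12.3% of all tested assays were. The median was 8.08 points against 2.56 over all tested assays, and 2.51 against 1.12 at equal reference Ct. None was called at equal reference Ct, where 8.77% of all tested assays were higher and 7.02% lower. Trp53 (p53) was found in every cell. The pocket proteins, which bind E2F factors and are substrates of cyclin D complexes, differed by 1.68 ± 16.9 points (Rb1), 8.08 ± 12.3 points (Rbl1) and 2.56 ± 9.02 points (Rbl2). For ndn (necdin, a growth suppressor that binds p53 and E2F1) the difference was 8.45 ± 15.4 points. At equal reference Ct these were -0.032 (Rb1), 2.51 (Rbl1), 1.71 (Rbl2) and 6.71 points (ndn). None of the 4 had the same sign on all plates by either measure.

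Levels in detecting cells could be compared for 74 assays, and their direction depended on the centring. With Actb and Gapdh as reference, 2 assays (2.7%) were higher and 16 (21.6%) lower in Ccnd1-detected cells, and the median difference was -0.19. Without centring 24 were higher and 2 lower, with a median of 0.22. With the 14 widely detected assays as reference, again less the assay itself, the counts were 6 and 9 and the median was -0.06. Only Ccnd2 among the higher assays, and IKZF2 and Jun among the lower, were called under all 3. Single levels are best read against these medians.

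IKZF2 encodes Helios, an Ikaros-family factor. Its level was -4.61 against -4.31, -4.94 against -4.66, -4.94 against -4.08 and -5.64 against -4.79, a difference of -0.57 ± 0.33, or -0.29 without centring. Jun, an AP-1 factor of the immediate early response, differed by -0.49 ± 0.34, or -0.23 without centring. Flt3, found in fewer Ccnd1-detected cells, was also at a lower level in those that had it. That difference was -0.76 ± 0.45 with centring on Actb and Gapdh, and it was not called with either other centring. Mdm2 and Epor, found in more Ccnd1-detected cells within plate, were called lower in level, with differences of -0.51 ± 0.31 and -0.20 ± 0.20. Without centring neither was called, at -0.10 for Mdm2 and 0.24 for Epor. With centring on the 14 widely detected assays Mdm2 was called lower, at -0.35, and Epor, at -0.07, was not called. Hlf, a transcription factor of HSCs that was detected in nearly every cell, had a difference of -0.61 ± 0.84, which was -0.19 without 5-week plate 1.

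Of the genes of the sort, Slamf1 and Ly6a could be tested and neither was called in share within plate, while Ly6a was called at equal reference Ct, as given above. Kit, the receptor for stem cell factor, was detected in 99.5% of Ccnd1-detected and 98.8% of undetected cells, all plates together. Slamf1 (CD150) was detected in 76.9% against 72.5%, 65.9% against 73.1%, 58.1% against 37.9% and 60.4% against 60.0% of cells, a difference of 4.43 ± 11.5 points (3.02 at equal reference Ct). For Ly6a the shares were 87.2% against 90.2%, 95.1% against 92.3%, 75.8% against 69% and 75% against 68.6%, a difference of 3.27 ± 4.56 points. Both genes were found in fewer cells at 5 weeks than at 2 weeks. Cd48, whose protein was absent by the sort, gave a product in 4 Ccnd1-detected cells (2.11%) and 1 undetected cell (0.599%), with a median Ct of 21.43. Cd34, which many HSCs of adult mice lack, differed by -1.5 ± 6.67 points (-6.05 at equal reference Ct). With Flt3, 4 genes of this list were tested. Flt3 was the 1 called lower, where 3.51% of all tested assays were, and the median was 0.884 points. At equal reference Ct Ly6a was called higher and Flt3 lower, where 8.77% and 7.02% of all tested assays were, and the median turned to -1.52.

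Genes of other blood lineages, which mark cells a sort could also hold, were rare in both groups or spread over both. Ebf1, of B cells, was found in 0 of 190 Ccnd1-detected cells, which allows a share of up to 1.58%, and in 0 undetected cells, which allows up to 1.8% (3 counts, for cells with a product). As the assay gave no product in any cell here, these data do not show that it works. Csf1r, the receptor of macrophage growth factor, was found in 13 and 18 cells, the lymphoid gene Dntt in 14 and 14, and Klf1, an erythroid factor, in 14 and 8. Of 5 tested lymphoid genes 1 was called lower, Flt3, where 3.51% of all tested assays were, and the list median was -0.496 points. At equal reference Ct Flt3 was again the 1 called, where 7.02% of all tested assays were lower, and the median was 0.442. In the list of granulocyte and monocyte genes 4 were tested, with Cebpb higher, Sfpi lower and a median of 2.74 points. At equal reference Ct the calls were the same and the median was 0.986. Of all tested assays 12.3% were higher and 3.51% lower, or 8.77% and 7.02% at equal reference Ct. Of 6 tested megakaryocyte and erythroid genes 1 was called higher, Epor, where 12.3% of all tested assays were, with a median of 5.1 points. At equal reference Ct Epor was not called, Gfi1b was called lower, where 7.02% of all tested assays were, and the median was -2.09.

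Among 12 tested of 28 measured HSC-associated genes, Trib2 alone was called, higher, where 12.3% of all tested assays were, and the median was 1.89 points. At equal reference Ct Trib2 and Gfi1 were called higher and Prmt2 lower, with a median of 1.99. Of all tested assays 8.77% were higher and 7.02% lower at equal reference Ct. The immediate early genes Fos, Egr1 and Jun differed by 1.64, 6.33 and -4.75 points, and by 3.95, 6.85 and -7.38 points at equal reference Ct, none called. Of the Polycomb genes, Ezh1 (a histone H3 lysine methyltransferase) differed by -2.57 points and Cbx7 (a chromodomain subunit) by 8.4 points (-3.23 and 8.51 at equal reference Ct), neither called. The Ezh1 level in detecting cells differed by -0.36 ± 0.41 and was called lower, but it was -0.17 without 5-week plate 1. It was not called with either other centring.

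Of the 38 assays without a tested share, 28 were found in more than 50% of all cells, 6 of them in every cell (Actb, Ccnd2, CDK4, Gapdh, Lmo2 and Trp53). The other 10 were found in fewer, 2 of them, Ebf1 and Tcf15, in 0 of 357 cells.

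Within the 190 Ccnd1-detected cells, the amount of Ccnd1 was set against that of 65 other assays by Spearman's rho per plate, as a description with no p. Levels were centred on Actb and Gapdh, so all pairs share that reference term, and the median of the mean rho was 0.11. The highest means were those of vwf (0.30, plates 0.05 to 0.60), which encodes von Willebrand factor and marks platelet-biased HSCs, Runx1t1 (0.30, plates 0.06 to 0.49), a transcriptional corepressor, and Ccnd2 (0.28, plates -0.06 to 0.56). On uncentred Ct the value for Ccnd2 was 0.40 (plates 0.25 to 0.45), beside 0.40 for Actb, 0.31 for Gapdh and a median of 0.15. For vwf it was 0.36 (plates 0.18 to 0.69). For Runx1t1 it was 0.10 (plates -0.32 to 0.31), below that median. The lowest centred means were those of Cd34 (-0.19, plates -0.40 to -0.11), Flt3 (-0.16, plates -0.26 to 0.04) and GMNN (-0.05). These correlations were weak, and the range over plates was wide for each.

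The same contrast was then set side by side at 2 and 5 weeks. The median difference over the 57 tested assays was -0.101 points at 2 weeks and 3.87 points at 5 weeks. The differences on both 5-week plates lay above those on both 2-week plates for 16 assays (28.1%), and below them for 3 (5.26%), Cdkn1c, Ikzf1 and Flt3. With 2 plates per chase time, many assays separate in this way by order alone, and the counts were not set against that rate. The reference Ct differed more between the groups at 5 weeks too, by -0.83 and -0.37 cycles against -0.19 and -0.13 at 2 weeks. Its part in these counts was examined only through the values at equal reference Ct given for single assays.

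The gap was widest for vwf. It was detected in 35.9% of Ccnd1-detected against 33.3% of undetected cells on 2-week plate 1 and 31.7% against 36.5% on 2-week plate 2. At 5 weeks the shares were 59.7% against 31% on plate 1 and 62.5% against 37.1% on plate 2. Undetected cells thus had similar shares on all 4 plates, and the Ccnd1-detected cells of both 5-week plates stood above all the rest. The mean difference was -1.13 points at 2 weeks and 27 points at 5 weeks, and -2.86 and 25.6 points at equal reference Ct. Whether the contrast differs between the chase times was not tested: no animal is named, and the plates of 1 chase time may be technical repeats.

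The gap for Itga2b was smaller once the reference Ct was allowed for. Itga2b, the integrin of megakaryocytes and platelets, differed by 0.225 points at 2 weeks and 17.9 at 5 weeks, but by -5.63 and 1.38 points at equal reference Ct. For ndn the differences were -2.11 and 19 points, and -2.98 and 16.4 at equal reference Ct. Cdkn1c went the other way, from 12.9 points at 2 weeks to 0.848 at 5 weeks (13.8 and -1.87 at equal reference Ct). For Ikzf1, which encodes Ikaros, the values were 12.8 and 3.32 points (11.9 and 0.892). Flt3 differed by -10.3 points at 2 weeks and -15.9 at 5 weeks (-10.6 and -14.6), on the same side of 0 at both.

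**Figure D5:**
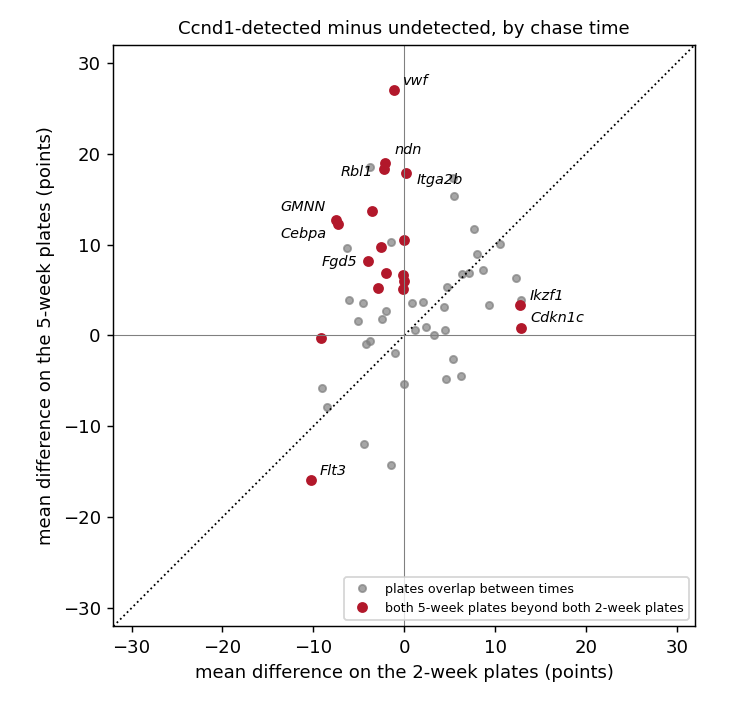
Mean difference in the share of cells with a product, Ccnd1-detected minus Ccnd1-undetected, on the 2-week plates (x axis, percentage points) against the 5-week plates (y axis, percentage points) for the 57 tested assays, with equality as a dotted line. The 19 assays whose 5-week plates both lie beyond both 2-week plates are drawn larger and in red. vwf stands highest, at -1.13 and 27 points, and Flt3 is the lowest of all, at -10.3 and -15.9 points.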

How the data were processed

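Per the labels' protocols, each cell was sorted into its own well, its RNA was reverse transcribed, 22 cycles of multiplex pre-amplification were run with 96 assays, and the product was diluted 5-fold and read with the dye EvaGreen over 30 cycles. The authors deposited 1 threshold cycle per assay and cell, not normalized, with a set code for no product. How the threshold was set, and which software was used, is not given in the sources used here. The dye binds double-stranded DNA whatever its sequence, so some late products may not be the intended ones.

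All 357 cells were mapped to chase time and plate by their labels. Depth does not apply; the number of cells limits precision. Groups were formed at a Ccnd1 Ct of 25. Per plate, the share of cells with a product (Ct 25 or below) in the undetected group was subtracted from that in the detected group, then averaged over 4 plates with equal weight (SD over plates). Shares at equal reference Ct came from a least squares fit of detection on group and mean Ct of Actb and Gapdh within each plate. Levels needed 5 detecting cells per group and plate, and rho 10. Intervals are exact Clopper-Pearson at 95%, and a count of 0 allows up to 3 counts. The labels name no animal, so no test was made. Genes were named by a rule: called assays, up to 5 per direction for adjusted shares and for levels, members of the cell cycle and sort lists, up to 3 per other list, the 3 highest and 3 lowest rho, and assays of opposite sign at the 2 chase times. An assay that the rule would name is not reported here. The split by Ccnd1, the gene lists and the alternatives were chosen with earlier results of these data known. Assay names matched RefSeq symbols as printed for 82 assays, in other letter case for 12, with a hyphen for 1 and not for Sfpi. Python 3.11.15, numpy 2.4.6, pandas 2.3.3, scipy 1.17.1 and matplotlib 3.10.9 were used, and the scripts were tested on simulated data.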

Additional observations from a re-analysis of the deposited data

Results flagged for a closer look

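The difference in CDK2 level between Ccnd1-detected and undetected cells was -0.24 and -0.25 on the 2-week plates and -0.29 on 5-week plate 2, but -0.01 on 5-week plate 1, a plate far from the other 3. Of 57 sets of 4 plates examined in this way, about 1 in 20 would be picked out by chance.

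For 4 assays the difference in share had one sign on both 2-week plates and the other on both 5-week plates. The difference between the times was not tested. For Rbl1, a pocket protein, the values were -2.56 and -1.83 points at 2 weeks and 22.5 and 14.2 at 5 weeks, a gap between the means of 20.5 points. GMNN, which encodes geminin, the inhibitor of Cdt1, had -2.56 and -12.4 points, then 7.45 and 18, a gap of 20.2. Cebpa, a myeloid transcription factor, had -6.79 and -7.88 points, then 17.6 and 6.9, a gap of 19.6. For Fgd5, a gene expressed in HSCs, the values were -0.302 and -7.65 points, then 9.79 and 6.61, a gap of 12.2. At equal reference Ct the means at 2 and 5 weeks were -5.23 and 10.3 points for Rbl1, -12.1 and 3.24 for GMNN, -8.79 and 8.94 for Cebpa, and -2.44 and 13.7 for Fgd5. By plate, GMNN then had -8.04 and -16.1 points at 2 weeks and -4.57 and 11.1 at 5 weeks. Fgd5 had 2.91 and -7.8 points, then 17.8 and 9.65. The signs at equal reference Ct thus still separated the chase times for Rbl1 and Cebpa, but not for GMNN and Fgd5.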

How the results depend on the processing

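Among 29 results on single called assays, 323 of 357 values under alternatives stayed within the spread between plates, 23 moved further and 11 changed sign; of 399 values for results not called, 9 moved. With Ccnd1 at Ct 18 or below, Trib2 turned to -2.59 points (-4.81 at equal reference Ct), the Actb difference was -0.88 cycles and 8 levels of the 33 comparable were lower. Among cells within 1 cycle of the plate's median reference Ct, Epor turned to -3.06 points and 8 adjusted shares were higher. Without centring, level differences turned to 0.27 for CDK2, 0.00 for Cdkn2c, 0.24 for Epor and 0.06 for Ezh1, and 24 levels were higher and 2 lower; on the widely detected assays 6 were higher and 9 lower. With undetected cells entered at the limit they were 0.46 for CDK2, 0.09 for Cdkn2c, 0.23 for Epor and 0.40 for Mdm2. With other assays limited to Ct 18, 2 adjusted shares and 1 level were higher; at Ct 23, 4 shares were higher. With at least 10 cells with and without a product per plate, 2 adjusted shares were higher. Leaving out each plate gave 8 to 19 shares higher and 2 to 6 lower, 7 to 14 adjusted shares higher and 5 to 10 lower, and 3 to 10 levels higher and 18 to 24 lower, over 3 plates in place of 4; the highest counts came without 2-week plate 2 for shares and adjusted shares higher, and without 5-week plate 1 for levels higher. The Actb difference then ranged from -0.46 to -0.27 cycles, the Gapdh difference from -0.48 to -0.20, and the number of other assays detected from 1.12 to 2.59. The share difference of Flt3 stayed between -14.4 and -8.57 points and the level difference of Ccnd2 between 0.23 and 0.68. All differences were taken within plate, so the plate is already the block, and no fit with a further block was made.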
